A study of Arabidopsis thaliana with 19 samples.

Results

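The 9 genes described here act in mitosis and DNA replication: the Aurora kinases AUR1 (AT4G32830), AUR2 (AT2G25880) and AUR3 (AT2G45490), the spindle checkpoint gene BUBR1 (AT2G33560), CDC27a (AT3G16320), KINESIN-12B (AT3G23670), ICU2 (AT5G67100), TOPII (AT3G23890) and the centromeric histone gene HTR12 (AT1G01370). Each was chosen by name, with earlier results of these data known, and measured by 1 probe set, out of 22810 probe sets on the array. Shares of all probe sets given below describe each comparison and do not test the 9 genes as a set. All 9 were among the 15627 probe sets tested, those with 2 or more arrays at or above the 40th percentile of the array. AUR1, AUR2, AUR3 and TOPII reached that level on 19 of 19 arrays, ICU2 on 17, KINESIN-12B and HTR12 on 15, BUBR1 on 14 and CDC27a on 8.

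Aurora kinases steer chromosomes and spindles through mitosis. In Arabidopsis the alpha class, AUR1 and AUR2, sits on spindle microtubules and the forming cell plate, and the beta class, AUR3, sits at centromeres. The spindle checkpoint, to which BUBR1 belongs, holds the anaphase-promoting complex back until chromosomes are attached, and CDC27a encodes a subunit of that ubiquitin ligase. KINESIN-12B is a motor of the phragmoplast, the microtubule array that builds the new cell wall. ICU2 is the catalytic subunit of DNA polymerase alpha, which starts new DNA strands, TOPII is the topoisomerase that untangles DNA duplexes, and HTR12 is the histone H3 variant that marks centromeres. Transcripts of many such genes are abundant in dividing cells of young leaves and meristems and low in mature leaf cells.

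The study measured shoots of 14-day-old Arabidopsis thaliana seedlings from which cotyledons and hypocotyls had been cut off, on 19 single-colour Affymetrix ATH1 arrays. Plants grew under short days, 10 h of light and 14 h of dark, at 20 °C, and 15 µg of total RNA went into each preparation. Overexpressing lines carried extra MYB29, MYB76, ATR1 or MYB51, MYB transcription factors of glucosinolate synthesis, a pathway of sulfur-containing defence compounds. Lines titled ATR1_like_miR and MYB28_like_miR carried a 35S-driven construct, and their titles join the factor's name to the letters miR. MYB29_OE (2 arrays) and MYB76_OE (2) had the wild type group WT_MYB29_MYB76 (3). ATR1_OE (2) and MYB51_OE (2) had WT_ATR1_MYB51 (2), and ATR1_like_miR (2) and MYB28_like_miR (2) had WT_miR (2). The promoter of the overexpression constructs, the number of independent transformants, the ecotype of the plants and the number of seedlings per sample are not given in the sources used here. Nothing in the labels says that replicates were grown apart, so p-values measure the spread between these samples, which may be technical.

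Median signal ranged from 78.4 to 106 over the arrays, in MAS5 signal units, a linear scale on which only relative levels of 1 probe set can be compared. Replicate arrays correlated between 0.911 and 0.986 (Pearson r across probe sets). The arrays differed in the signal of 69 plastid-encoded probe sets. Its median on the log2 scale was 11.3, 9.92 and 8.01 on the WT_MYB29_MYB76 arrays, 9.82 and 10.9 for ATR1_like_miR, and 10.3 and 9.25 for MYB28_like_miR, but only 4.64 to 6.38 on the other 12 arrays. In 2 experiments this difference lay between the lines and their wild type. MYB28_like_miR replicate 2 is titled for that construct while its source field names the other one. The title was followed. A gene is called where limma's adjusted p, by Benjamini-Hochberg over all probe sets tested, was under 0.05, and no gene of the 9 was called in the comparisons of this line with or without that array.

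By their mean, though not each by itself, the 9 genes were lowest on the ATR1_OE arrays and highest on the WT_miR arrays. Their mean log2 signal was 5.22 and 5.72 for ATR1_OE, against 8.14 and 8.13 for WT_miR. WT_ATR1_MYB51 stood at 6.63 and 7.10, WT_MYB29_MYB76 at 6.92, 6.66 and 6.15, and MYB51_OE at 7.09 and 6.31. MYB29_OE, at 7.29 and 7.61, and MYB76_OE, at 7.40 and 7.39, lay above both of these wild type groups. The plot of array summaries shows the values with the plastid signal beside them. In whole shoots, fewer dividing cells and less of each transcript per cell cannot be told apart.

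**Figure D1:**
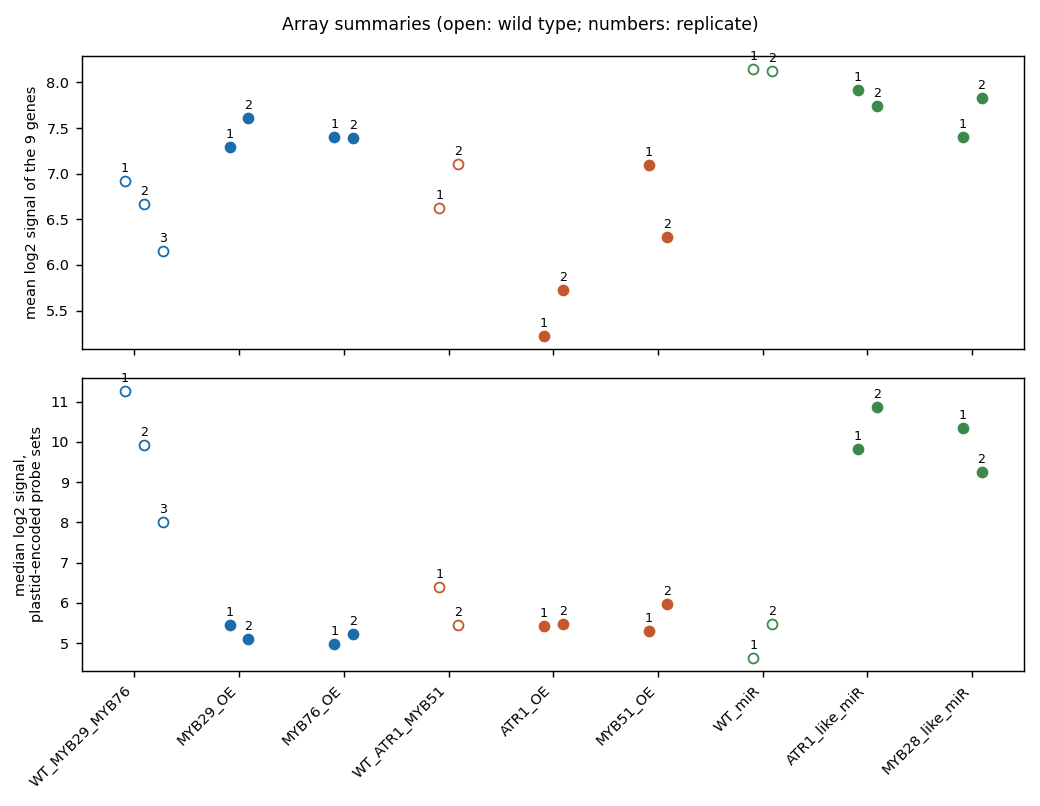
Mean log2 signal of the 9 genes (top) and median log2 signal of 69 plastid-encoded probe sets (bottom) on each of the 19 arrays, by group, with replicate numbers; open circles are wild type and colours mark the 3 experiments. The ATR1_OE arrays lie lowest in the top panel, at 5.22 and 5.72, and the plastid signal is high in WT_MYB29_MYB76 and in both microRNA lines.

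Ordered by mean log2 signal, 8 genes were highest in WT_miR and KINESIN-12B in ATR1_like_miR, and neighbouring groups often overlapped. For AUR1 the WT_miR and MYB29_OE arrays overlapped, ATR1_like_miR, MYB76_OE and MYB28_like_miR followed and overlapped in turn, then came WT_ATR1_MYB51, MYB51_OE and WT_MYB29_MYB76, again overlapping, and ATR1_OE stood apart at the bottom. AUR2 kept WT_miR apart at the top and ATR1_OE apart at the bottom, with ATR1_like_miR, MYB28_like_miR and MYB29_OE overlapping in between. For AUR3 the 3 groups of the microRNA experiment overlapped at the top, WT_ATR1_MYB51, WT_MYB29_MYB76 and MYB51_OE overlapped lower down, and ATR1_OE was separate below them. CDC27a had another order, from WT_miR and MYB76_OE at the top to WT_MYB29_MYB76 at the bottom, and its ATR1_OE arrays overlapped those of WT_ATR1_MYB51. Both ATR1_OE arrays lay below the other 17 arrays for 6 of the 9 genes, AUR1, AUR2, AUR3, KINESIN-12B, TOPII and HTR12. Of all probe sets tested, 8.4% had that pattern.

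Seedlings overexpressing ATR1 had lower signals of 7 of the 9 genes than their wild type. ATR1 is a MYB factor of indole glucosinolate synthesis. The 7 were the 3 Aurora kinases, KINESIN-12B, ICU2, TOPII and HTR12, with differences between 2.03-fold and 3.89-fold, whereas BUBR1 and CDC27a did not pass the test. Of all probe sets tested, 9.62% were called lower in this comparison. The median log2 difference was -1.75 for the 9 genes and -0.13 for all probe sets tested. ATR1_OE and wild type arrays did not overlap for the same 7 genes, a pattern shown by 36.7% of all probe sets tested.

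Among the Aurora kinases, AUR2 differed most. AUR2 signals were 57.8 and 61.6 in ATR1_OE against 179 and 289 in WT_ATR1_MYB51, a log2 difference of -1.93 ± 0.39 (SE; adjusted p = 0.00425). AUR1 signals were 150 and 184 against 319 and 467, 2.32-fold lower (log2 -1.21 ± 0.28, adjusted p = 0.0102). AUR3 signals were 49.0 and 50.9 against 109 and 94.4, a log2 difference of -1.02 ± 0.29 (adjusted p = 0.0293). Every ATR1_OE array was thus below both wild type arrays for each of these kinases. AUR1 and AUR2 are close relatives, and whether either probe set also detects the other transcript was not tested.

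Of the genes acting on spindle, cell plate and anaphase, KINESIN-12B passed the test and BUBR1 and CDC27a did not. Whether the genes differed from each other was not tested. KINESIN-12B, the phragmoplast motor, had signals of 11.96 and 20.3 in ATR1_OE against 52.6 and 80.1 in wild type, 3.89-fold lower (log2 -1.96 ± 0.35, adjusted p = 0.00198). For BUBR1 the values were 28.3 and 39.1 against 36.2 and 93.4, so the groups overlapped, and the difference of -0.80 did not pass the test (95% interval -1.90 to 0.29, adjusted p = 0.317). CDC27a had signals of 45.7 and 35.1 against 33.3 and 50.9, with a log2 difference of -0.04 (95% interval -0.91 to 0.83). The wild type arrays enclosed both ATR1_OE arrays for this subunit of the anaphase-promoting complex.

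Genes of DNA replication and chromosome structure were lower together. ICU2 had signals of 22.2 and 67.1 in ATR1_OE against 160 and 123 in wild type, a log2 difference of -1.86 ± 0.47 (adjusted p = 0.0163). TOPII had 61.3 and 93.0 against 172 and 376, 3.36-fold lower (log2 -1.75 ± 0.46, adjusted p = 0.0188). HTR12 had 11.5 and 32.1 against 82.4 and 77.3, 3.81-fold lower (log2 -1.93 ± 0.39, adjusted p = 0.00451). Replicate 1 of ATR1_OE was the lowest array for all 3. On that array KINESIN-12B and HTR12 lay at or below the floor, the array's 20th percentile, so their differences depend on the floor in part.

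The count of 7 rested on few arrays, and calls over all probe sets also fell when any 1 of these arrays was left out. Without WT_ATR1_MYB51 replicate 2, or without ATR1_OE replicate 1, 2 genes were called, without WT_ATR1_MYB51 replicate 1 the count was 5, and without ATR1_OE replicate 2 it was 6. KINESIN-12B was called under each of the 14 alternatives run for this comparison (adjusted p up to 0.0400). Plastid-encoded signal was similar in these groups, 5.42 and 5.48 against 6.38 and 5.44, and with it as a covariate 7 genes were still called. Against the pooled 7 wild type arrays the count was 7 as well. With only the arrays of this experiment in the fit it was 4, at the same differences. Fewer arrays then estimate the spread, and why calls were lost was not tested.

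MYB51_OE, from the same experiment, had none of the 9 genes called against the shared wild type (limma), and none had an unadjusted p under 0.05. Over all probe sets 1.38% were called. MYB51 also regulates indole glucosinolates. The 2 arrays of MYB51_OE differed from each other, replicate 1 being higher for 8 of the genes. AUR2 had 256 and 107, TOPII had 408 and 134, ICU2 had 181 and 78.5, and BUBR1 had 105 and 37.7 on replicates 1 and 2. Wild type arrays overlapped MYB51_OE for 8 of the 9 genes, and HTR12, with 73.4 and 63.5 against 82.4 and 77.3, was the other one (23.2% of all probe sets had MYB51_OE separate and lower). Log2 differences ran from -0.46 for AUR2 (95% interval -1.28 to 0.36) to 0.12 for BUBR1 (95% interval -0.98 to 1.21).

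Compared directly with MYB51_OE, ATR1_OE was lower for AUR1 (log2 -1.15 ± 0.28, adjusted p = 0.0450), KINESIN-12B (-1.84 ± 0.35, adjusted p = 0.0133) and HTR12 (-1.70 ± 0.39, adjusted p = 0.0324). Over all probe sets 1.71% were called lower. Arrays did not overlap for 7 of the 9 genes, as for 25.2% of all. AUR2 at -1.47 (adjusted p = 0.0543), TOPII at -1.63 (adjusted p = 0.0664) and ICU2 at -1.62 (adjusted p = 0.0762) missed the threshold. With only the arrays of this experiment none of the 9 was called (limma; 11 probe sets were over the whole array), and 1 was with quantile normalization or without a filter. The count also moved with single arrays: 7 genes were called without MYB51_OE replicate 2, 3 without ATR1_OE replicate 2, and 0 without MYB51_OE replicate 1 or without ATR1_OE replicate 1. The leaf photosynthesis gene RCA moved the other way, at 13671 and 11655 in ATR1_OE against 9031 and 8506 in MYB51_OE (log2 0.53, adjusted p = 0.0493), a call lost on leaving out any 1 of these arrays. Against its own wild type no line had RCA called, with log2 differences of 0.21 in ATR1_OE and -0.31 in MYB51_OE. They were -0.13 in MYB29_OE and -0.16 in MYB76_OE. The part of RCA in the difference between ATR1_OE and MYB51_OE was not tested.

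**Figure D2:**
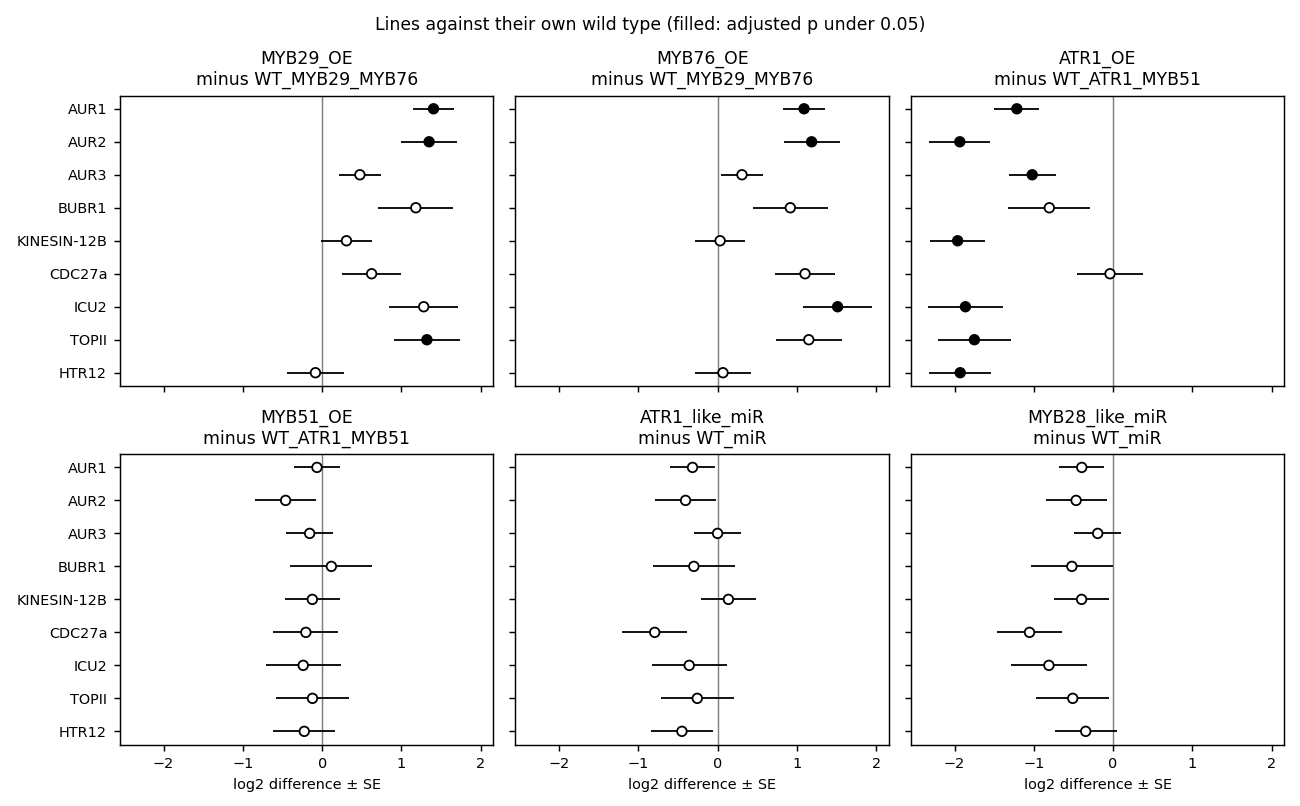
Log2 difference (± SE) of the 9 genes between each of the 6 lines and the wild type of its own experiment, filled where the adjusted p was under 0.05. Filled points are 7 negative ones in ATR1_OE and 3 positive ones each in MYB29_OE and MYB76_OE, and none in the other 3 lines.

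MYB29 and MYB76 regulate aliphatic glucosinolates. In seedlings overexpressing MYB29, the alpha Auroras AUR1 and AUR2 and the topoisomerase gene TOPII were higher than in wild type, by 2.65-fold, 2.55-fold and 2.50-fold. In MYB76_OE AUR1, AUR2 and the polymerase gene ICU2 were higher, by 2.13-fold, 2.27-fold and 2.86-fold. Over all probe sets 8.09% were called higher in MYB29_OE and 7.15% in MYB76_OE. The median log2 difference of the 9 genes was 1.18 and 1.09 in these lines, against 0.06 and 0.05 for all probe sets. Both comparisons share the 3 wild type arrays.

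AUR1 signals were 753 and 806 in MYB29_OE and 646 and 608 in MYB76_OE, against 425, 270 and 221 in WT_MYB29_MYB76. Its log2 difference was 1.40 ± 0.26 (adjusted p = 0.00296) in MYB29_OE and 1.09 ± 0.26 (adjusted p = 0.0136) in MYB76_OE. All 4 line arrays lay above the 3 wild type arrays. AUR2 signals were 384 and 429 in MYB29_OE and 373 and 353 in MYB76_OE, against 215, 177 and 106. Its log2 difference was 1.35 ± 0.35 (adjusted p = 0.0203) and 1.19 ± 0.35 (adjusted p = 0.0386). The beta Aurora differed less, with AUR3 at 127 and 145 in MYB29_OE and at 115 and 127 in MYB76_OE, against 127, 83.4 and 88.4 in wild type. AUR3 did not pass the test in either line (log2 0.48, 95% interval -0.09 to 1.05, and 0.31, 95% interval -0.26 to 0.88).

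Replication genes were on the same side. ICU2 signals were 172 and 192 in MYB29_OE and 201 and 227 in MYB76_OE, against 77.7, 117 and 46.0, with log2 differences of 1.28 ± 0.43 (adjusted p = 0.0583) and 1.51 ± 0.43 (adjusted p = 0.0329). TOPII signals were 621 and 579 in MYB29_OE and 545 and 520 in MYB76_OE, against 295, 290 and 161, with log2 differences of 1.32 ± 0.42 (adjusted p = 0.0457) and 1.15 ± 0.42 (adjusted p = 0.0824). Neither gene overlapped between line and wild type, although each passed the test in 1 line. No gene of the 9 was called between MYB29_OE and MYB76_OE (0.0256% of all probe sets were), and none had an unadjusted p under 0.05, so the lines were not shown to differ in either gene.

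BUBR1, at 99.0 and 172 in MYB29_OE and 106 and 111 in MYB76_OE against 85.9, 65.3 and 33.9, lay above wild type on all arrays without passing the test (log2 1.18, adjusted p = 0.102, and 0.92, adjusted p = 0.209). CDC27a, at 35.2 and 56.1 and at 61.0 and 62.8 against 31.8, 21.9 and 34.4, did the same (1.54-fold higher, adjusted p = 0.273, and 2.15-fold higher, adjusted p = 0.0652). These groups did not overlap for 7 genes in MYB29_OE and 6 in MYB76_OE, as for 25.6% and 25.8% of all probe sets. KINESIN-12B, at 84.7 and 112 and at 85.4 and 75.7 against 111, 78.2 and 56.3, overlapped wild type in both lines. HTR12 did so too, with 49.1 and 68.1 and with 67.5 and 61.2 against 68.0, 74.9 and 45.4, and log2 differences of -0.08 and 0.07.

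Plastid-encoded signal moved with these comparisons, at 5.44 and 5.09 in MYB29_OE and 4.99 and 5.23 in MYB76_OE against 11.3, 9.92 and 8.01 in wild type. With it as a covariate, 0 of the 9 genes were called in either line by limma. The median difference of the 9 did not shrink, being 1.497 in MYB29_OE and 1.24 in MYB76_OE, while the median SE rose from 0.36 to 0.74 and 0.76. For AUR1 in MYB29_OE the value was 1.80 ± 0.53 (adjusted p = 0.109). Plastid signal and line cannot be told apart here. Against the pooled 7 wild type arrays the count was also 0 in both lines, with smaller medians of 0.48 and 0.43. Without WT_MYB29_MYB76 replicate 3 each line had 1 gene called, without replicate 1 each had 2, and without replicate 2 MYB29_OE had 4 and MYB76_OE 3. Leaving out MYB29_OE replicate 1 or 2 left 1 and 0 genes called, and leaving out either MYB76_OE array left 0.

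The microRNA lines had none of the 9 genes called against WT_miR. Over all probe sets 2.02% were called in ATR1_like_miR and 6.43% in MYB28_like_miR (limma). The unadjusted p was under 0.05 for 0 and for 1 gene, CDC27a in MYB28_like_miR. The median log2 difference of the 9 genes was -0.32 and -0.47, against -0.10 and -0.14 for all probe sets. Against the pooled 7 wild type arrays these medians turned positive, 0.76 and 0.53, with 0 genes called. Arrays of line and wild type did not overlap, with the line lower, for 6 genes in each line, as for 32.5% and 36.6% of all.

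AUR1 signals were 706 and 592 in ATR1_like_miR and 526 and 712 in MYB28_like_miR, against 843 and 768 in WT_miR. AUR2 signals were 577 and 491 and 421 and 618, against 838 and 592. AUR3 signals were 184 and 235 and 155 and 213, against 226 and 191. AUR1 thus lay below both wild type arrays on the 4 line arrays, while AUR3 overlapped wild type in both lines. The 95% intervals of the Aurora differences ran from -1.29 (AUR2 in MYB28_like_miR) to 0.62 (AUR3 in ATR1_like_miR).

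CDC27a had the largest difference of the 9 in both lines, with signals of 49.7 and 33.6 in ATR1_like_miR and 26.3 and 44.2 in MYB28_like_miR against 57.6 and 87.2 in WT_miR. Its log2 difference was -0.79 (95% interval -1.67 to 0.08, adjusted p = 0.359) and -1.05 (95% interval -1.93 to -0.18, adjusted p = 0.134). KINESIN-12B, at 181 and 181 in ATR1_like_miR and 134 and 116 in MYB28_like_miR against 163 and 167, was separate from wild type upwards in the former (19.3% of all probe sets were) and downwards in the latter. ICU2, at 233 and 199 and at 148 and 168 against 267 and 286, lay below wild type in both. TOPII had 913 and 631 and 617 and 659 against 767 and 1072. BUBR1 had 176 and 175 and 122 and 186 against 236 and 198, and HTR12 had 111 and 106 and 82.1 and 166 against 160 and 137. None of these passed the test, and in the direct comparison of the 2 lines 0 of the 9 genes were called (0.032% of all probe sets were) and 0 had an unadjusted p under 0.05. Plastid-encoded signal was higher in both lines than in WT_miR, and with it as a covariate 0 genes were called.

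The wild type groups differed from each other in the same genes. WT_miR was higher than WT_MYB29_MYB76 for 9 of 9 genes, between 2.09-fold for KINESIN-12B and 4.42-fold for AUR2, where 13.2% of all probe sets were called higher. AUR2 had the largest difference, a log2 of 2.14 ± 0.35 (adjusted p = 0.000886), followed by TOPII at 1.92 ± 0.42, BUBR1 at 1.91 ± 0.47 and ICU2 at 1.89 ± 0.43. Arrays did not overlap for any of the 9, as for 31.3% of all probe sets. The median log2 difference was 1.45, against 0.18 for all probe sets. With plastid-encoded signal as a covariate 0 genes were called, although the median difference was 1.86, as its median SE rose from 0.36 to 0.77. Without WT_miR replicate 1 the count was 4, and without replicate 2 it was 3. Without WT_MYB29_MYB76 replicate 3 the count was 7, without replicate 2 it was 8, and with the replicate number as a block it was 6. RCA was lower in WT_miR, at 7609 and 7369 against 9439, 9657 and 10569 (log2 -0.40, adjusted p = 0.0311), a call lost without WT_MYB29_MYB76 replicate 3 or either WT_miR array.

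WT_ATR1_MYB51 was also lower than WT_miR, with plastid-encoded signal at 6.38 and 5.44 against 4.64 and 5.47. Of the 9 genes 6 were called, the 3 Auroras, BUBR1, KINESIN-12B and TOPII, where 7.35% of all probe sets were called lower. The log2 difference was -1.63 ± 0.39 for AUR2 (adjusted p = 0.0114), -1.84 ± 0.46 for TOPII (adjusted p = 0.0151) and -1.89 ± 0.52 for BUBR1 (adjusted p = 0.0239). Arrays did not overlap for any of the 9, as for 35.1% of all. With the plastid covariate the count was again 6. Without WT_ATR1_MYB51 replicate 1 or WT_miR replicate 1 it was 0, without WT_miR replicate 2 it was 1, and without WT_ATR1_MYB51 replicate 2 it was 5. RCA was higher in WT_ATR1_MYB51 than in WT_miR, at 10287 and 11539 (log2 0.54, adjusted p = 0.0146), a call lost without WT_ATR1_MYB51 replicate 2 or either WT_miR array. Its part in these wild type differences was not tested. Of 3 stomatal lineage genes, FAMA was called, lower in WT_miR than in WT_MYB29_MYB76 and WT_ATR1_MYB51. Its mean signal was 71.4, against 173 and 199. Of the 15627 probe sets, 1239 and 889 were called lower in WT_miR in these comparisons. The FAMA call was lost without WT_miR replicate 1 in the former and without WT_ATR1_MYB51 replicate 2 in the latter. Between WT_ATR1_MYB51 and WT_MYB29_MYB76, 0 of the 9 were called by limma (6.69% of all probe sets were) and 0 had an unadjusted p under 0.05. ICU2, with 160 and 123 against 77.7, 117 and 46.0, was the farthest apart there (log2 0.91, 95% interval -0.01 to 1.83).

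**Figure D3:**
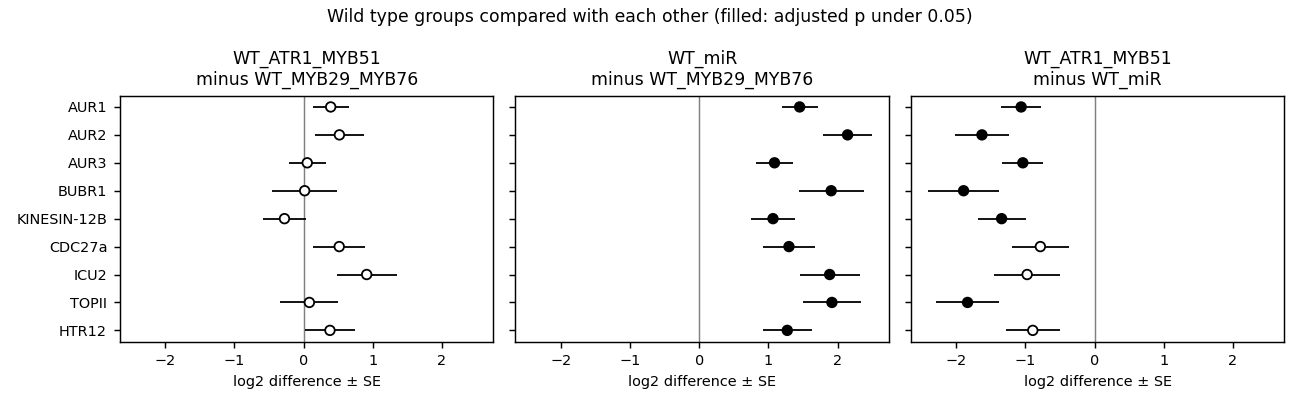
Log2 difference (± SE) of the 9 genes between the 3 wild type groups, filled where the adjusted p was under 0.05. All 9 points are filled for WT_miR minus WT_MYB29_MYB76, 6 for WT_ATR1_MYB51 minus WT_miR and none for WT_ATR1_MYB51 minus WT_MYB29_MYB76.

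The effect of overexpression was also compared between experiments, as the mean effect of MYB29_OE and MYB76_OE minus the mean effect of ATR1_OE and MYB51_OE, each against its own wild type. This difference was called for 5 of the 9 genes, AUR1, AUR2, KINESIN-12B, ICU2 and TOPII, and was positive for all 9, where 11.2% of all probe sets were called higher. The median effect on the 9 was 1.18 in MYB29_OE and 1.09 in MYB76_OE. It was -1.75 in ATR1_OE and -0.16 in MYB51_OE, so the second mean came mostly from ATR1_OE. AUR1 was called under each of the 22 alternatives run for it (log2 1.61 to 2.26), and it was the gene still called with the plastid covariate, under which the median difference was 1.80 against 1.39 and the median SE 0.76 against 0.45. KINESIN-12B lost its call under 14 of the 22. The count ranged from 3, without WT_ATR1_MYB51 replicate 2, to 7, without MYB51_OE replicate 1.

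Apart from CDC27a, the genes had similar profiles over the arrays. Over 19 arrays Pearson's r of log2 signals lay between 0.75 and 0.97 (median 0.88) for the 28 pairs without CDC27a, and between 0.16 and 0.46 (median 0.32) for the 8 pairs with it. After subtracting group means it lay between 0.38 and 0.93 (median 0.61) for the former and between -0.49 and 0.17 for the latter. All pairs share the arrays and their scaling, and CDC27a was below the 40th percentile on most arrays. How these values compare with those for pairs of other probe sets was not tested.

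Outside the 9, the genes most like an Aurora kinase were named by Pearson's r of log2 signal over 19 arrays, among 8542 probe sets of 1 named gene. Nearest to AUR2 were AT5G66230 (r = 0.980), FU (AT1G50240, r = 0.975) and AT3G01410 (r = 0.970). FU encodes a FUSED-family kinase known for its role in cytokinesis during pollen development. AT5G66230 had a mean signal of 55.7 in ATR1_OE, 214 in WT_ATR1_MYB51 and 760 in WT_miR. It was picked for its likeness to AUR2 over these same arrays, so a similar profile was given by the choice. Nearest to AUR1 were AT5G23910 (r = 0.958), AT4G35730 (r = 0.954) and AT5G48310 (r = 0.952). Nearest to AUR3 were AT3G51720 (r = 0.966), AT1G63100 (r = 0.965) and NET1A (AT3G22790, r = 0.962), an actin-binding protein of the NET family. To the mean of the 9, AT5G66230 (r = 0.977), AT5G23910 (r = 0.975) and AT4G35730 (r = 0.969) came closest.

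Of 135 further genes listed for mitosis, replication and the cell cycle, 14 could be named on the array, and all 14 were tested. This list too was chosen with earlier results of these data known. None of the 29 cyclins and cyclin-dependent kinases and none of the 10 cell cycle transcription factors on the list is named in the annotation used here. In ATR1_OE 8 of the 14 were lower and 0 higher, with a median log2 difference of -1.15, where 9.62% of all probe sets were called lower. They were the 3 checkpoint partners of BUBR1, BUB3.1 at -1.63, BUB3.2 at -1.21 and BUB3.3 at -1.08, and the 3 replication genes, POLA4 (a primase subunit working with polymerase alpha) at -1.39, PSF2 (of the GINS complex) at -1.30 and MCM7 (of the replicative helicase) at -1.29. RSW7, a mitotic kinesin, at -1.45 and SMC2B, a condensin subunit, at -1.42 completed them. On leaving out 1 of the 4 arrays, the MCM7 call was lost with any of them and that of RSW7 with 3. SMC2B alone kept its call throughout. The count was 3 with only the arrays of this experiment and 5 with quantile normalization. It was 2 without WT_ATR1_MYB51 replicate 2 and 3 without ATR1_OE replicate 1, and 6 without either other array. HBT, the second CDC27 gene, had -0.38 (adjusted p = 0.252) and so, like CDC27a, did not pass.

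In MYB29_OE 3 of the 14 were higher, INCENP at 1.59 (the Aurora partner of the chromosomal passenger complex), BUB3.2 at 1.06 and SMC2B at 0.89, and SIM, an inhibitor of mitotic cycles in endoreduplicating cells, was lower at -1.28. Over all probe sets 8.09% were called higher there and 6.63% lower. In MYB76_OE INCENP was called higher at 1.15 and SIM lower at -1.45. That is 1 of 14 in each direction, near the 7.15% and 5.61% of all probe sets, so it says nothing about the list. Median log2 differences of the 14 were 0.57 and 0.59. With the plastid covariate 0 of the 14 were called in either line, at medians of 0.77 and 0.58. Against the pooled wild types 0 were called too, at smaller medians of 0.23 and 0.18. Without MYB29_OE replicate 2, 0 were called in that line. The INCENP call in MYB76_OE was lost with quantile normalization, without a filter, with the floor at the 10th percentile, with the replicate block and with only the arrays of this experiment. It was also lost without either array of that line and without WT_MYB29_MYB76 replicate 1 or 3, and that of SIM without MYB76_OE replicate 1. SIM was also lower in WT_ATR1_MYB51 than in WT_MYB29_MYB76, at -1.19, and SMC2B higher, at 1.03, and neither was called there without WT_ATR1_MYB51 replicate 1 or 2, nor SMC2B without WT_MYB29_MYB76 replicate 2.

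In MYB51_OE and ATR1_like_miR 0 of the 14 were called by limma, with 1 and 0 at an unadjusted p under 0.05. HASPIN, a mitotic histone kinase, at -0.97 and HBT at -0.77 were lower in MYB28_like_miR, where 4.37% of all probe sets were. No gene of the 14 was called there once any 1 of the 4 arrays was left out, nor with quantile normalization, without a filter, or with the replicate block or the plastid covariate. Between wild type groups, WT_miR exceeded WT_MYB29_MYB76 for 11 of the 14, with a median log2 difference of 1.11, where 13.2% of all probe sets were called higher. They were led by INCENP at 1.98, the kinetochore gene NDC80 at 1.94 and the condensin gene CAP-D2 at 1.66. That count was 6 without WT_miR replicate 1, 4 without replicate 2 and 7 without WT_MYB29_MYB76 replicate 3. It was 5 with the replicate block and 0 with the plastid covariate, at medians of 1.098 and 1.19. Between ATR1_OE and MYB51_OE, MCM7 at -1.84 and PSF2 at -1.18 were lower in ATR1_OE. Leaving out MYB51_OE replicate 2 raised that count from 2 to 5, and leaving out any other of the 4 arrays brought it to 0, as did a fit to this experiment alone.

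**Figure D4:**
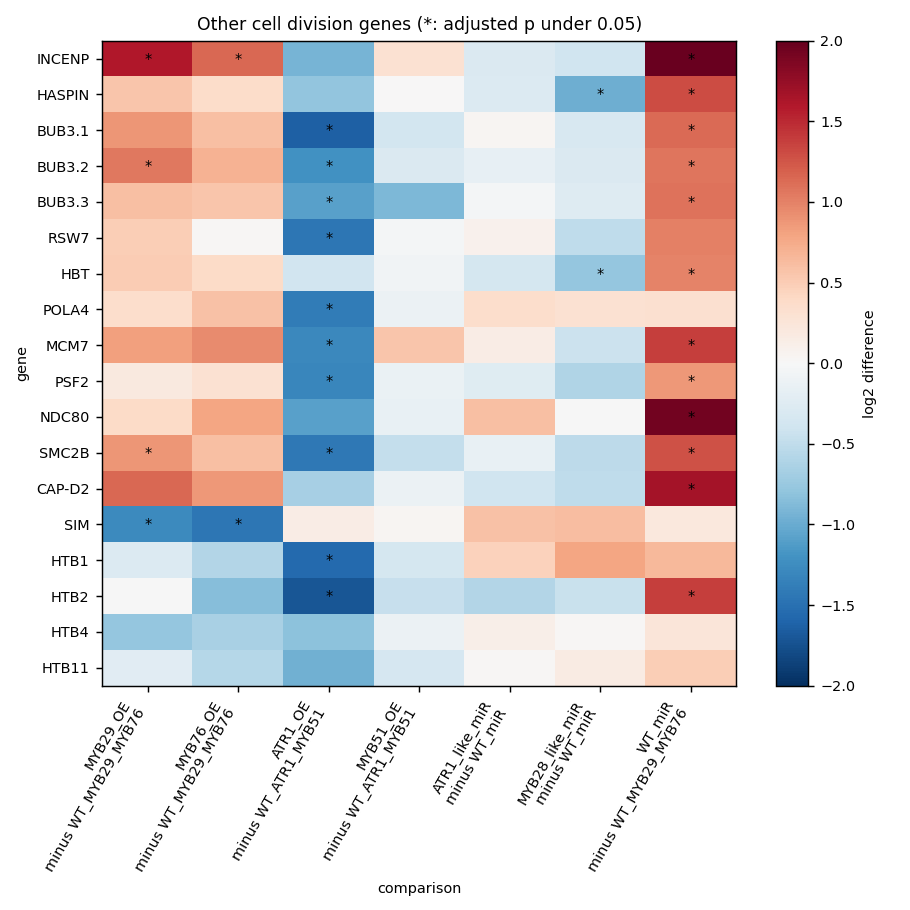
Log2 difference of the 14 further cell cycle genes and 4 histone H2B genes (rows) in the 6 lines against their own wild type and in WT_miR minus WT_MYB29_MYB76 (columns), as a colour scale, with an asterisk where the adjusted p was under 0.05. The ATR1_OE column is low for checkpoint and replication genes, and the column of WT_miR minus WT_MYB29_MYB76 is high for 11 of the 14.

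Gene families that dividing cells need in bulk were added to the list once the annotation was known. Of 4 histone H2B genes, HTB1 at -1.56 and HTB2 at -1.71 were lower in ATR1_OE. Of 7 tubulin genes 1 was, TUB7 at -1.01, and the median of the 7 was -0.11. With 9.62% of all probe sets called lower in this comparison, 1 of 7 is near that background. In MYB29_OE, MYB76_OE and MYB51_OE 0 genes of either family were called by limma, with 2, 3 and 1 of the 11 at an unadjusted p under 0.05. All 4 H2B genes had negative differences in MYB29_OE (median -0.25) and MYB76_OE (median -0.61). Of the 7 tubulin genes 5 did in each line, at medians of -0.42 and -0.48. The 9 genes went the other way there, with medians of 1.18 and 1.09. In MYB51_OE the medians were -0.35 for H2B and 0.28 for tubulin genes. Without WT_ATR1_MYB51 replicate 2 none of HTB1, HTB2 and TUB7 was called in ATR1_OE (adjusted p = 0.0962, 0.0703 and 0.298), nor without ATR1_OE replicate 2, and HTB1 and TUB7 were not called without ATR1_OE replicate 1.

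Of 30 markers of other cells and tissues 6 were named. RCA, the leaf photosynthesis gene rubisco activase, had signals of 7056 to 13671. CLV3, a shoot meristem gene, lay at or below the floor on 17 arrays, and EXPA7, a root hair gene, between 6.57 and 82.5, at or below the floor on 5. The tissue label of a leafy shoot thus rests on RCA among the named markers, and no flower marker was named. Of the stomatal lineage, whose young cells divide, SPCH, MUTE and FAMA were named. SPCH was lower in ATR1_OE (-1.52, adjusted p = 0.00958), MUTE higher in MYB29_OE (1.28) and FAMA lower in MYB76_OE (-0.98). Each was 1 of 3 genes, where 9.62%, 8.09% and 5.61% of all probe sets were called in the same direction. In MYB29_OE 2 differences were positive and FAMA was on the other side, with a mean signal of 139 against 173 in wild type. In MYB76_OE all 3 were negative. The SPCH call was lost without WT_ATR1_MYB51 replicate 2 or ATR1_OE replicate 1 (adjusted p up to 0.0924), and those of MUTE and FAMA without any 1 array but WT_MYB29_MYB76 replicate 2 (up to 0.273 and 0.249). SPCH signals were 99.1 and 154 in ATR1_OE against 335 and 373 in WT_ATR1_MYB51. MUTE, at 44.6 and 24.3 against 60.4 and 56.6, and FAMA, at 170 and 161 against 176 and 221, did not pass the test there (adjusted p = 0.193 and 0.619). The summed signal of the 3, which mixes probe sets of different scale and is mostly SPCH, was 314 to 339 against 572 to 651. SPCH thus was lower in ATR1_OE beside the 7 called genes, and its part in their difference was not tested.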

How the data were processed

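Per the submitters' processing notes the authors summarised each of the 19 arrays with MAS5 (no version named), and the deposited values are linear signal intensities. In the values themselves, the mean left after trimming 2% at each end is 250 on every array. Values below an array's 20th percentile (12.4 to 19.1) were raised to it as a floor and log2 was taken. Control probe sets (64) were left out. One limma 3.58.1 model (R 4.3.3, lmFit, contrasts.fit, eBayes with trend) with 9 group means was fitted to all 15627 probe sets that passed the filter, with 10 residual and 5.62 prior degrees of freedom. Intervals are 95% from the moderated t distribution. Comparisons (13) were two-sided, adjusted by Benjamini-Hochberg over all probe sets of a comparison. The fit was tested on simulated data. Alternatives covered scaling, floor, filter, trend, robust fit, a replicate block, a plastid covariate, single experiments, pooled wild types and leaving out each array. Probe sets were named through the platform annotation and RefSeq TAIR10.1. The members and lists were chosen with earlier results of these data known. By the rule used, the 9 genes are named in every comparison, other lists by up to 4 called members with the largest change, and the 3 genes most like each Aurora and the mean. Beyond it, the 8 called cell cycle genes in ATR1_OE, HBT there and the marker genes were named after their values were seen. Same-numbered arrays' deviations from group means correlated between -0.218 and 0.158. In a group of 2 the deviations mirror each other, so this cannot show whether same-numbered arrays were handled as pairs. The number of arrays limits the precision. Figures were drawn with matplotlib 3.10.9.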

Additional observations from a re-analysis of the deposited data

Results flagged for a closer look

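For 5 of the 9 genes the effect of overexpression differed between 2 experiments, by a test of the difference itself in limma: the mean log2 effect of MYB29_OE and MYB76_OE, minus the mean log2 effect of ATR1_OE and MYB51_OE. The difference was 1.89 ± 0.33 (SE) for AUR1 (adjusted p = 0.00188), 2.46 ± 0.45 for AUR2 (adjusted p = 0.00236), 1.21 ± 0.40 for KINESIN-12B (adjusted p = 0.0470), 2.45 ± 0.55 for ICU2 (adjusted p = 0.00769) and 2.17 ± 0.53 for TOPII (adjusted p = 0.0119). With plastid-encoded signal as a covariate AUR1 alone of these was called, although the 5 differences were not smaller (1.80 for KINESIN-12B to 3.03 for ICU2). Their errors were larger, for example 2.63 ± 0.75 for AUR2 (adjusted p = 0.0686), and 430 probe sets were called in place of 2823. The KINESIN-12B call was lost under 14 of 22 alternatives, those of AUR2 and ICU2 under 1 and that of TOPII under 2. MYB51_OE by itself had none of the 9 genes called. For KINESIN-12B the effect was 0.31 in MYB29_OE and 0.03 in MYB76_OE, against -1.96 in ATR1_OE and -0.12 in MYB51_OE. Its difference thus came mostly from ATR1_OE.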

How the results depend on the processing

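No value called in the original fit or in an alternative changed sign. Of 1666 values of single genes under the alternatives, 1513 kept their side of the threshold, 138 lost it and 15 gained it. A further limit is that 82 uncalled values changed sign, 48 of them on leaving out an array and 19 with the 7 wild type arrays pooled, under which AUR1 had a log2 difference of 0.61 in ATR1_like_miR and 0.53 in MYB28_like_miR. The medians of the 9 genes turned from -0.32 to 0.76 and from -0.47 to 0.53 there. The counts of called genes, out of 9, moved as follows, and calls over all probe sets also moved on leaving out an array. MYB29_OE against wild type (3) gave 1 with the replicate block, 0 with the plastid covariate and 0 with the pooled wild types, and 0 to 4 on leaving out an array. MYB76_OE against wild type (3) gave 0 under the same 3 settings and 0 to 3 on leaving out an array. ATR1_OE against wild type (7) gave 4 with its own experiment's arrays alone and 2 to 6 on leaving out an array. ATR1_OE against MYB51_OE (3) gave 1 with quantile normalization, 1 without a filter and 0 with its own experiment's arrays alone, and 0 to 7 on leaving out an array. WT_miR minus WT_MYB29_MYB76 (9) gave 0 with the plastid covariate and 3 to 9 on leaving out an array, and WT_ATR1_MYB51 minus WT_miR (6) gave 0 to 5. The difference of effects (5) gave 1 with the plastid covariate and 3 to 7 on leaving out an array. Causes of these moves were not tested, but fewer arrays enter 2 of these settings. The other 6 comparisons kept a count of 0 throughout. With the filter at the 60th percentile CDC27a and HTR12 were not tested, leaving 7 genes. Over all probe sets, the plastid covariate changed the calls from 2301 to 209 in MYB29_OE, from 1994 to 218 in MYB76_OE and from 3307 to 216 for WT_miR minus WT_MYB29_MYB76, while the median difference of the 9 genes was larger with it in each of these 3. That of CDC27a by itself was smaller with it in each. A single array left in a group was assumed to vary like the others.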
